A study of Mus musculus with 12 samples.

Results

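Of 52530 accessible regions measured in mouse hepatocyte nuclei, 757 (1.44%) gave at least 2-fold more signal after the liver had been frozen. Each of these peaks had log2((mean of the 3 frozen libraries + 1)/(mean of the 3 fresh libraries + 1)) of at least 1 among fasted mice and again among fed mice. The members were thus chosen by their normalized read counts in frozen and fresh liver, so that contrast is described without a test. Each peak is 200 bases wide. The peaks lay at 670 separate places when members within 500 bases were joined, and 75 places held more than 1 member. Neighbouring members overlapped in 65 cases and share reads there. They were assigned to 627 nearest genes, which need not be the genes they regulate.

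The assay was ATAC-seq, in which a transposase inserts sequencing adapters into open DNA, so reads pile up where chromatin is accessible. Nuclei came from HEP-INTACT mice, whose hepatocyte nuclei carry a genetic tag that lets them be pulled out of whole liver. The sources used here do not say which promoter drives the tag or how old the mice were. The 4 groups were frozen liver of fasted mice, frozen liver of fed mice, fresh liver of fasted mice and fresh liver of fed mice, with 3 libraries in each. All 6 mice were female HEP-INTACT animals, and each gave both a frozen and a fresh library. The 3 fasted mice went without food for 16 h from ZT12, when the active phase begins, and the 3 fed mice ate freely and were killed at the same clock time.

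Depth lay between 3.69 M and 9.20 M reads in peaks for the frozen libraries and between 5.85 M and 14.5 M for the fresh ones. The shallowest, frozen fasted library C, had a median of 51 reads per peak. Of 6 hepatocyte marker genes, 5 had a peak within 1 kb of their start, including albumin (Alb) and Hnf4a. None of 5 endothelial, 5 macrophage or 4 lymphocyte markers had one, while 1 of 4 stellate (Reln) and 1 of 4 bile duct markers (Sox9) did. Of the markers of other cells, only Stab2 had a member among its peaks. In bulk nuclei a lower share of cells with an open region and less opening per cell cannot be told apart.

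Several kinds of sequence recur among the members and are introduced here as background. Ribosomal RNA genes exist in many copies and are transcribed in the nucleolus, and fragments related to them are scattered through the chromosomes. Gamma satellite is the repeat of pericentromeric heterochromatin, which is normally compact. Many CpG-rich promoters carry binding sites of NRF1, CREB or E-box proteins, short palindromic motifs that contain a CpG. NRF1 was first described in rat through the promoters of cytochrome c and of 5-aminolevulinate synthase, the first enzyme of heme synthesis, and the cAMP response element is the site of CREB, which acts in the fasted liver.

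Promoter sequences were compared because 224 members (29.6%) are annotated as promoters. Of these, 149 overlapped a RefSeq promoter window (GRCm38.p6, 250 bases before to 50 after the start) by at least 100 bases, in 139 distinct windows. Among all 14635 promoter peaks, 9020 did so, in 8309 windows. The 9 windows shown are those of some of the strongest promoter members, of Cycs, and of well-known liver, stress and clock genes. Capitals mark each match, on either strand, to 1 of 10 motifs: the NRF1 core (GCGCATGC), the NRF1 site (GCGCA, any base, then GCGC), the cAMP response element (TGACGTCA), the E-box (CACGTG), the ETS site (CCGGAAG), the GC box (GGGCGG), the CCAAT box, the TATA box (TATAAA), the AP-1 site (TGANTCA) and CTCGCGAG. Overlapping matches of 1 motif count as 1 place. The NRF1 core overlaps the NRF1 site wherever the middle base of the site is T.

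The first 5 windows carry NRF1-type matches. Alas1 (5-aminolevulinate synthase) lies at chr9:106247905-106248204 on the minus strand, and Cycs (cytochrome c) at chr6:50566520-50566819, also minus. B3galt6, a galactosyltransferase of the proteoglycan linker, is at chr4:155992629-155992928 on the minus strand. Nup50, a nuclear pore protein, is at chr15:84923178-84923477, and Hnrnph1, a splicing regulator, at chr11:50377428-50377727, both on the plus strand.
Alas1: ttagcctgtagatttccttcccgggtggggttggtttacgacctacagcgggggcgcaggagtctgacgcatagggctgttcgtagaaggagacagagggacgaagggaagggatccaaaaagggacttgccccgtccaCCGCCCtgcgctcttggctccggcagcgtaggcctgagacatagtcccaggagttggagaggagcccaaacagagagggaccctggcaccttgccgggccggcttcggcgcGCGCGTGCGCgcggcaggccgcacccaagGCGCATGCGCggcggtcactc
Cycs: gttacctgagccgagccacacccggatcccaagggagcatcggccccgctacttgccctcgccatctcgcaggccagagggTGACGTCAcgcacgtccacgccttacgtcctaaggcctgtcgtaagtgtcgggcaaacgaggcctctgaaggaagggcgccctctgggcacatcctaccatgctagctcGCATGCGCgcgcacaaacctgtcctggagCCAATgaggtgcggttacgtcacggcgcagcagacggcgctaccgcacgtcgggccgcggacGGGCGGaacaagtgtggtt
B3galt6: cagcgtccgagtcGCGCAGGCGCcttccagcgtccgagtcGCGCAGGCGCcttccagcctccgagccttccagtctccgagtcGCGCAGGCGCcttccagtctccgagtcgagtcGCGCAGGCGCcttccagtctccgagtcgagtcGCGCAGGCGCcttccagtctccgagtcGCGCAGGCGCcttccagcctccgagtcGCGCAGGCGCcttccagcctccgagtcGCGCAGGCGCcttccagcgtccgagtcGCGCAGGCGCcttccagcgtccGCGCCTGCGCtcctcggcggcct
Nup50: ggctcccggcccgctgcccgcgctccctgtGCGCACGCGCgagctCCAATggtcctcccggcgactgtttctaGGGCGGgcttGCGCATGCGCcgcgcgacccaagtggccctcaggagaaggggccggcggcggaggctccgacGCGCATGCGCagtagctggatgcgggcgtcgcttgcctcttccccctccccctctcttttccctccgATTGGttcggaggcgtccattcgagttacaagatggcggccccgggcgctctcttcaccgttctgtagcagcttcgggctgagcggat
Hnrnph1: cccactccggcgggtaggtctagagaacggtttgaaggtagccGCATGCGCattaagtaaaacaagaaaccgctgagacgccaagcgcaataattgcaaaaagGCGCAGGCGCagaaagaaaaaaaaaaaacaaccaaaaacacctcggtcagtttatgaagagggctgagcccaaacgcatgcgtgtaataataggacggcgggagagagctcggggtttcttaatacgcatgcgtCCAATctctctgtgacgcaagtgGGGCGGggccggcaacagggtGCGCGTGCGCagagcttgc
The B3galt6 window is a tandem array that holds the NRF1 site at 10 places. Nup50 holds that site at 3 places, Alas1 and Hnrnph1 at 2 each. Cycs has the NRF1 core once and a cAMP response element once.

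The next pair carries a cAMP response element. Ddx51, an RNA helicase of ribosome assembly, is at chr5:110653201-110653500 on the plus strand. Dusp1, a phosphatase that switches off MAP kinases, is at chr17:26508423-26508722 on the minus strand and also has an E-box.
Ddx51: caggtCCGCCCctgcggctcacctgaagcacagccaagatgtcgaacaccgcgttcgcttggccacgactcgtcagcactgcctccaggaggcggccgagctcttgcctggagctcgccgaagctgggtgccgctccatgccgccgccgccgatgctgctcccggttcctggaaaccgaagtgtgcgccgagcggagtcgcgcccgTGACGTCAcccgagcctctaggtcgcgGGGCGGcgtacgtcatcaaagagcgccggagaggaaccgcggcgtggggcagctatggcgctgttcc
Dusp1: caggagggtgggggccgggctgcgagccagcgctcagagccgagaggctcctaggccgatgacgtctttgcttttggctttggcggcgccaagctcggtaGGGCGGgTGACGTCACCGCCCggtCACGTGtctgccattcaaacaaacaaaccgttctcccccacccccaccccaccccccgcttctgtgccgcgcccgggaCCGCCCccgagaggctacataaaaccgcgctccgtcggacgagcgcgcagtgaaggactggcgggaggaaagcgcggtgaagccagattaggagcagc
The last pair shows promoters of hepatocyte and clock genes. Alb is at chr5:90460620-90460919 on the plus strand and Nr1d1, which encodes the clock repressor REV-ERBα, is at chr11:98775328-98775627 on the minus strand.
Alb: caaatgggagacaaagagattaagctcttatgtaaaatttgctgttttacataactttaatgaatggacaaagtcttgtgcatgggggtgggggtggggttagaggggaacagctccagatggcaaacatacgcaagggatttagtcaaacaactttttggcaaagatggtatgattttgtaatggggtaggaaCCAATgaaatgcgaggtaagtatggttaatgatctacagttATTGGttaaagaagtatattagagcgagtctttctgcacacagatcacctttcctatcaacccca
Nr1d1: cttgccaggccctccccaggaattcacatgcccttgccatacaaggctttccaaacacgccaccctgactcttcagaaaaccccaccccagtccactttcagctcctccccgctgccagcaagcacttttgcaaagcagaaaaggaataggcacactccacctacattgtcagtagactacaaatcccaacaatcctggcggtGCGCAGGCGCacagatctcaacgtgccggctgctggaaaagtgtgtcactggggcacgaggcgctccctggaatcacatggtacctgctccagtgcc
Alb is AT-rich, with 3 CpG in its window against 48 in B3galt6, and matched only the CCAAT box, at 2 places. Nr1d1 has 1 NRF1 site and 9 CpG.

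NRF1 sites, cAMP response elements and E-boxes were more frequent in member promoters than in promoter peaks at large. The NRF1 site stood in 48 of 139 member windows (34.5%), in 12.2% of all promoter-peak windows and in 4.59% of all 32817 windows of the table. That site was added after the printed member windows had been read, so its share among members is a description only. For the NRF1 core the shares were 23.0% of member windows (32), 6.23% of promoter-peak windows and 2.71% of the table. The cAMP response element was in 13.7% of member windows (19), 3.57% of promoter-peak windows and 1.79% of the table, and the E-box in 22.3% (31), 11.3% and 7.15%. The TATA box was in 12.9%, 6.27% and 13.6%, and CTCGCGAG in 5.76%, 2.23% and 0.92%. The AP-1 site was in 5.76% of member windows, 4.26% of promoter-peak windows and 7.81% of the table.

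Other motifs of active promoters ran the other way. ETS sites were in 11.5% of member windows, 20.3% of promoter-peak windows and 8.86% of the table. GC boxes were in 58.3%, 71.0% and 35.6%, and CCAAT boxes in 30.9%, 41.4% and 37.4%. Member windows had a median G+C of 62.7% and 26 CpG, against 62.0% and 22 CpG for all promoter peaks. Among windows with at least 26 CpG, the members' median, the NRF1 site was in 45.7% of 70 member windows and 18.5% of 3167 promoter-peak windows. The cAMP response element was in 12.9% and 4.07%. These subsets differed in composition too, with a median G+C of 66.8% in members and 69.7% in promoter peaks, and 34 and 32 CpG. The part of composition in the motif shares was not tested. CTCGCGAG was in only 1 of those member windows (1.43%) and in 3.22% of those promoter-peak windows, too few among members to compare.

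The 999 peaks that met the mirrored rule, at least 2-fold lower in frozen liver, differed from the members in some motifs and not in others. Their 118 promoter windows held the NRF1 core and the cAMP response element 0 times, the NRF1 site in 4.24%, the E-box in 5.93% and the CCAAT box in 58.5%. GC boxes, in 46.6%, were below the share of all promoter peaks, as in the members, and AP-1 sites, in 6.78%, were above it, as in the members. Their median CpG count was 13, so composition differs from the members as well. Over all promoter peaks with a window, the median log2 frozen/fresh was 0.32 for the 1129 with an NRF1 site and 0.04 for the 7891 without. For the cAMP response element it was 0.38 for 326 peaks and 0.06 for the rest, for CTCGCGAG 0.44 for 206 peaks and 0.06, and for the CCAAT box 0.01 for 3807 peaks and 0.13. The GC box, less frequent in member windows, went the other way here, with 0.09 for 6453 peaks and 0.02 for the rest. Members were 4.78% of the promoter peaks with an NRF1 site and 1.20% of those without. Matches lay within 100 bases of the peak centre in 48 of 54 member peaks with an NRF1 site (88.9%) and in 81.4% of all such peaks. For the NRF1 core these shares were 79.4% of member peaks and 79.8% of all, for the cAMP response element 70.0% and 86.5%, and for the E-box 72.7% and 72.1%. A match is a run of letters, not a measured binding event, and all these shares share the same 12 libraries.

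**Figure D1:**
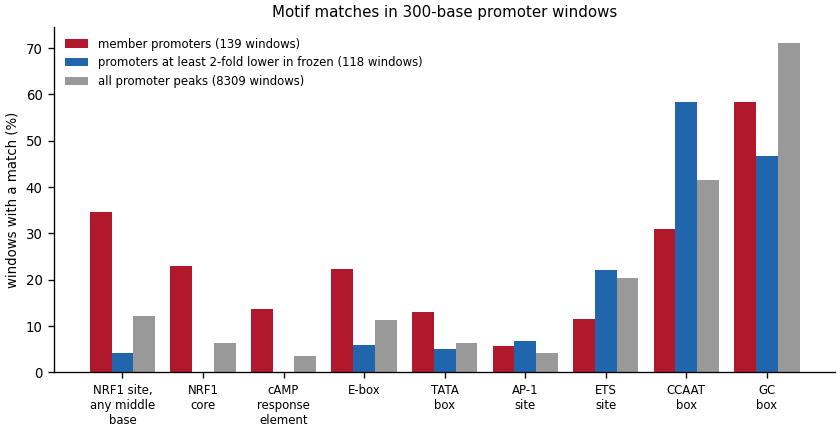
Share of 300-base promoter windows (y axis, %) holding each motif (x axis), for member promoters (red, 139 windows), promoters at least 2-fold lower in frozen liver (blue, 118) and all promoter peaks (grey, 8309). The NRF1 site, added after printed member windows were read, stands at 34.5%, 4.24% and 12.2%. CCAAT and GC boxes are less frequent in member windows than in all promoter peaks.

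In reads, the members took 2.09% ± 0.028 of all normalized counts in frozen fasted and 0.865% ± 0.011 in fresh fasted libraries (SD, n = 3 each). In fed mice they took 1.82% ± 0.081 in frozen and 0.759% ± 0.013 in fresh libraries. The median log2 frozen/fresh of the members was 1.26 in fasted and 1.24 in fed mice, against -0.04 in each for all peaks. All 6 frozen libraries lay above all 6 fresh libraries for 726 members, and such separation held for 15.2% of all peaks; 31 members overlapped. Over the whole table, limma called 28.7% of peaks higher and 32.8% lower in frozen liver. Every member was above 0 in each of the 6 lettered frozen-fresh pairs, and 361 were at or above 1 in all 6. No other peak reached 1 in all 6, as the rule implies. The same values chose the members, so this agreement and the separation above are largely set by the rule. How many of all peaks were above 0 in every pair was not counted.

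Most members had low levels in fresh liver, which the rule favours because the fresh mean is its denominator. When all peaks were ranked by fresh level and cut into 4 equal groups, the members numbered 423, 192, 117 and 25 from the lowest group to the highest. Their median level was 172 normalized reads in frozen and 69.1 in fresh liver, against 114 and 113 for all peaks. Ratios were modest for most: 619 members had a mean log2 ratio under 1.5 and 31 reached 2. Just inside the threshold, the Abhd11 promoter peak had log2 frozen/fresh of 1.10 in fasted and 1.00 in fed mice. Just outside it, the Ogfod2 promoter peak had 1.00 and 1.05, with 200.2, 180.4 and 167 reads in frozen fasted and 96.4, 87.8 and 88.1 in fresh fasted libraries.

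**Figure D2:**
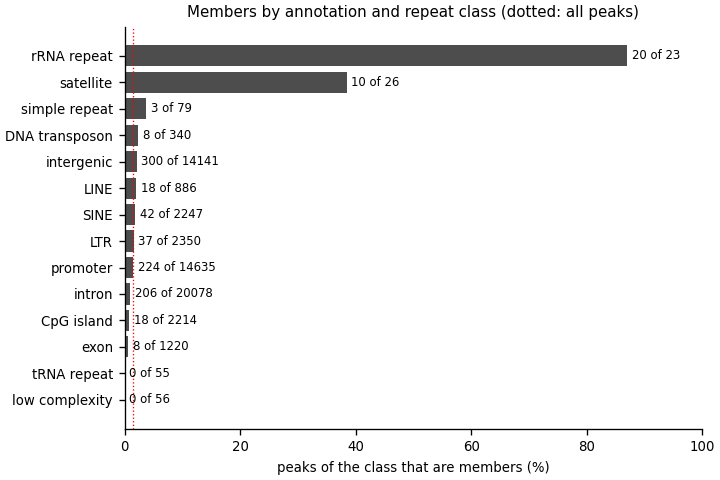
Percentage of the peaks in each annotation or repeat class that are members (x axis), with the counts beside each bar and the 1.44% of all peaks as a dotted line. rRNA repeats (20 of 23) and satellites (10 of 26) lie to the right of the other classes shown.

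By class, rRNA-like and satellite repeats were the ones most filled with members. Of 23 peaks on annotated rRNA repeats 20 were members (87.0%), 19 of them on fragments of the large-subunit rRNA. All 3 peaks on Rn45s, the 45S rRNA precursor, were members too. Satellites gave 10 of 26, among them 9 of 12 gamma satellite peaks. Members among other repeats, beside 1.44% of all peaks, were 42 of 2247 SINE (1.87%), 37 of 2350 LTR (1.57%), 18 of 886 LINE (2.03%) and 0 of 55 tRNA repeat peaks. Both peaks on internal IAP retrovirus sequence were members. Intergenic peaks were members in 2.12%, promoters in 1.53% and introns in 1.03% of cases. How reads with several matches were placed is not given in the sources used here, and copies of 1 repeat can share reads.

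The largest ratio was at a large-subunit rRNA fragment in an intron of Txndc11, at chr16:11144009-11144209 (mm10). It had 468, 455 and 616 normalized reads in frozen fasted and 54.3, 30.6 and 38.4 in fresh fasted libraries. In fed mice it had 287, 374 and 439 reads in frozen and 67.4, 35.8 and 48.6 in fresh libraries. The groups were far apart, at log2 3.61 in fasted and 2.83 in fed mice. Rn45s held the highest levels of any member: at chr17:39844045-39844245 it had 1766, 1804 and 2479 reads in frozen fasted and 421, 354 and 416 in fresh fasted libraries. In fed mice the same peak had 1422, 1738 and 1598 reads in frozen and 552, 389 and 396 in fresh libraries. Library C, the shallowest, was the highest frozen fasted one at both peaks.

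Summed over the 20 rRNA repeat members, the level was 6529 ± 1217 in frozen fasted and 977 ± 58.6 in fresh fasted libraries (SD, n = 3 each). The fed sums were 5087 ± 639 in frozen and 1335 ± 246 in fresh libraries. All 20 had a larger log2 frozen/fresh in fasted than in fed mice, as had all 10 satellites, whereas over all members the count was 427 larger in fasted and 330 in fed. The 10 satellites lay nearest to only 3 genes and the 20 rRNA members to 14. Since copies can also share reads, these peaks are not independent cases. The rRNA members had medians of 2.48 in fasted and 1.62 in fed mice, and the satellites 2.13 and 1.48.

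**Figure D3:**
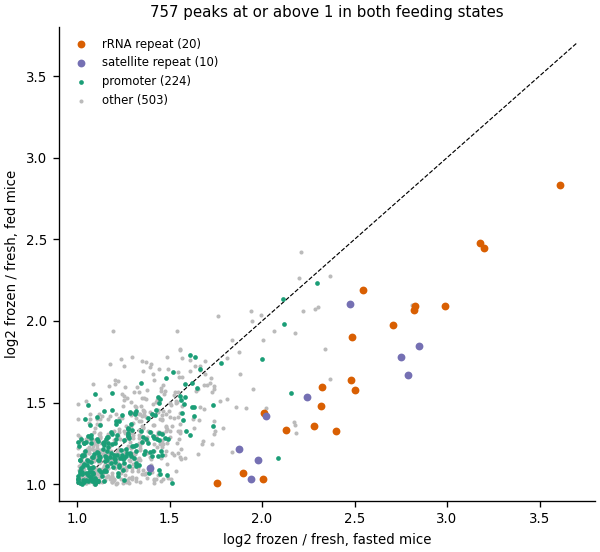
Log2 frozen/fresh of each of the 757 members in fasted (x axis) and fed mice (y axis), coloured by class, with the line of equal ratios dashed. rRNA (orange) and satellite members (purple) all lie below the line, up to 3.61 on the x axis, and most other members lie near the corner at 1.

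Satellite members stood apart in how much fresh libraries differed among themselves. The gamma satellite peak at chr2:98666728-98666928 had 230.2, 227 and 271 reads in frozen fasted and 25.8, 9.35 and 63.3 in fresh fasted libraries. Its fed values were 117, 186 and 249 in frozen and 40.8, 104 and 6.57 in fresh libraries. Summed over the 10 satellites, fresh libraries A, B and C had 825, 351 and 1973 reads in fasted mice and 1159.9, 2837 and 479.7 in fed mice. The depths of those libraries were 11.3 M, 14.5 M and 6.86 M reads in fasted and 8.71 M, 5.85 M and 11.6 M in fed mice, so within each feeding state the shallower library had the higher sum. The highest fresh sum was 5.62 times the lowest in fasted and 5.92 times in fed mice, against 1.62 and 1.58 times among the frozen libraries. The part of depth in this spread was not tested. Among the 361 members at or above 1 in every lettered pair, satellites were 0.554%, against 1.32% of all 757.

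Members outside rRNA and satellite repeats varied far less between mice than satellites did. Their median coefficient of variation was 8.55% for frozen and 9.45% for fresh liver of fasted mice, and 9.19% for frozen and 11.3% for fresh liver of fed mice. For satellites it was 29.3% in frozen and 83.3% in fresh liver of fasted mice, and 27.4% in frozen and 84.7% in fresh liver of fed mice. The rRNA repeat members lay between, at 18.1% in frozen and 11.4% in fresh liver of fasted mice, and 13.4% and 18.8% in fed mice.

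**Figure D4:**
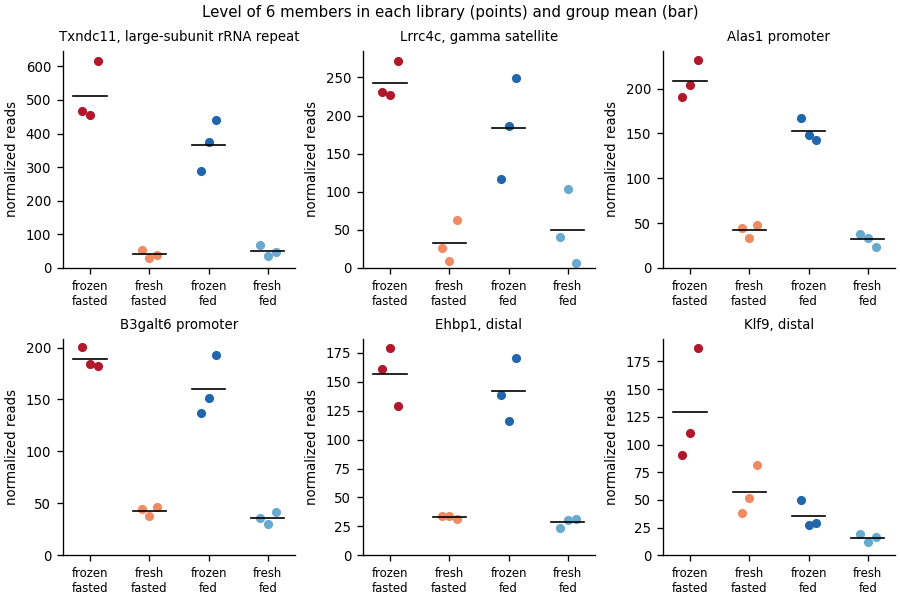
Normalized reads per library (points) and group mean (bar) for 6 members, with frozen beside fresh liver for fasted (reds) and fed mice (blues). Frozen libraries lie above fresh ones within each feeding state in every panel, which the rule favours. The satellite peak spreads between 6.57 and 104 reads in fresh liver, and at the Klf9 peak fasted libraries are also above fed ones.

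The strongest promoter member was Alas1. Its peak at chr9:106247931-106248131 had 190.2, 204 and 231 reads in frozen fasted and 44.8, 32.7 and 47.5 in fresh fasted libraries. In fed mice it had 167, 148 and 143 in frozen and 38.2, 33.2 and 23.7 in fresh libraries, so log2 frozen/fresh was 2.30 in fasted and 2.23 in fed mice. A second Alas1 promoter peak beside it was a member at 1.32 and 1.24. The tandem NRF1 array between B3galt6 and Sdf4, a Golgi calcium-binding protein, gave 3 overlapping members. The strongest B3galt6 peak had 200.2, 184 and 182 reads in frozen fasted and 44.8, 37.4 and 46.3 in fresh fasted libraries, with log2 ratios of 2.11 in fasted and 2.13 in fed mice.

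Other strong promoter members lay at Nup50, Hnrnph1 and Polr2e. At Nup50, 3 of 4 peaks were members, and the strongest had 275, 288 and 269 reads in frozen fasted and 82.1, 83.1 and 101 in fresh fasted libraries (log2 1.63 in fasted and 1.78 in fed mice). Hnrnph1 had 238, 233 and 234 reads in frozen fasted and 67.9, 68.6 and 83.6 in fresh fasted libraries. All 3 peaks of Polr2e, a subunit shared by the nuclear RNA polymerases, were members and overlap one another. Beyond 10 kb from any start and outside annotated repeats, the largest ratio was at a CpG island 26.6 kb from Rpp21, with 2.81 in fasted and 2.10 in fed mice. Peaks near Ehbp1, with 2.20 and 2.27, and near Nampt, the NAD salvage enzyme, with 2.22 and 2.06, came next.

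Among gene lists for liver functions, clock genes and glucocorticoid targets held the largest shares of members. Clock genes had 9 members among 178 peaks (5.06%), near Per1 (3), Nr1d1 (2), Nr1d2, Per2, Dbp and Hlf. Glucocorticoid targets had 16 of 333 (4.80%), near the transcription factor genes Klf9 (4), Zbtb16 (3) and Bcl6, and near Lpin1 (3), Per1 (3), Dusp1 and Sult1a1. Per1 is in both lists. The 3 Lpin1 members overlap and are counted again under lipogenesis, and some other genes are also in more than 1 list. Xenobiotic genes followed with 7 of 186 (3.76%), lipogenesis with 8 of 241 (3.32%) and ribosomal proteins with 5 of 156 (3.21%). At the low end were cholesterol synthesis with 0 of 163, gluconeogenesis with 1 of 250 (Sik1) and amino acid breakdown with 3 of 329 (0.912%). The other lists had 4 of 160 for acute phase, 7 of 298 for immediate early, 4 of 164 for endoplasmic reticulum stress and 2 of 86 for heat shock genes. Hepatocyte transcription factors had 7 of 428, secreted proteins 8 of 431, fatty acid oxidation 5 of 247 and bile acid genes 2 of 200. Among marker lists of other cells, endothelial genes had 1 of 40 and bile duct, stellate, macrophage and lymphocyte or blood genes had 0 of 15, 6, 5 and 18.

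At genes of these lists frozen and fresh libraries did not overlap in the members shown next. The same held for 726 of all 757 members, which these values chose, and for 15.2% of all peaks. The Dusp1 promoter peak had 492, 476 and 534 reads in frozen fasted and 177, 169 and 191 in fresh fasted libraries. In fed mice it had 459, 457 and 435 in frozen and 149, 145 and 134 in fresh libraries. At the Alb promoter, the member peak had 345, 319 and 316 reads in frozen fasted and 126, 122 and 119.8 in fresh fasted libraries. The peak nearest to the Alb start was another one and not a member. Its means were 374 in frozen and 187 in fresh liver of fasted mice, and 314 and 168 in fed mice. The Per1 peak 1.86 kb from its start had 392, 397 and 467 reads in frozen fasted and 169.6, 132 and 153 in fresh fasted libraries.

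Fasting was compared next, because the average of frozen and fresh liver in fasted against fed mice is not part of the rule. Each mouse was taken as the mean of its frozen and fresh library, 3 fasted against 3 fed, with limma across all peaks and Benjamini-Hochberg adjustment. Of the 757 members 242 were higher and 10 lower in fasted mice at an adjusted p under 0.05 (32.0% and 1.32%), where 16.5% and 18.1% of all peaks were called. The median log2 fasted/fed was 0.22 for members and 0.05 for all peaks, and 663 members were above 0. Without fasted mouse A the calls were 119 higher and 8 lower, without fed mouse A 131 and 9, without fed mouse B 133 and 7, and without fed mouse C 197 and 6. When libraries were scaled to the median of peaks near gene starts, the calls were 92 higher and 22 lower, so 80.7% of called members were higher, against 96.0% in the deposited scaling. That scaling moved the median of all peaks to -0.08 and their share of higher calls to 24.0%, against 47.8%. The members' median stood 0.17 above that of all peaks in both scalings. Scaling moves all peaks of a library alike and could hardly change this gap. With quantile normalization the gap was 0.23 for the average, 0.33 in fresh and 0.13 in frozen liver.

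Within frozen liver alone 214 members were higher and 8 lower in fasted mice, against 12.8% and 15% of all peaks. Within fresh liver alone 110 were higher and 15 lower, against 11.4% and 16.1% of all peaks. Leaving out fasted mouse A, fed mouse A or fed mouse B left 124, 106 and 125 higher calls in frozen liver, and 40, 67 and 56 in fresh liver. Frozen liver had 4 lower calls without fed mouse B and 3 without fed mouse C, and fresh liver had 5 without fed mouse A and 9 without fasted mouse A. In both preparations 73 were called higher and 5 lower, and 1 was called in opposite directions. Fasted libraries lay above fed ones without overlap in both preparations for 197 members and below for 9, where 13.8% and 16.2% of all peaks did so. The authors' deposited table called 191 members higher and 7 lower in frozen liver (13.5% and 16% of all peaks), and 115 higher and 18 lower in fresh liver (8.93% and 14.1%). For the 999 peaks at least 2-fold lower in frozen liver the direction was reversed, with 28 higher and 419 lower in fasted mice and a median of -0.38.

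Called members were spread over the genome's parts. Intergenic members gave 101 higher and 6 lower of 300, introns 64 and 4 of 206, and promoters 69 and 0 of 224. All promoter peaks had 2838 higher and 556 lower of 14635, so few promoter peaks fell in any case. Of the 54 member promoter peaks with an NRF1 site 17 were higher and 0 lower, where 20.1% and 0.266% of all promoter peaks with that site were called. That is close to the 30.8% of all promoter members that were higher. For the NRF1 core 5 of 34 member peaks were higher, where 19.2% of all promoter peaks with it were. The cAMP response element had 7 of 20, against 22.7%, and the E-box 11 of 33, against 23.2%. A tie of fasting calls to a motif was not tested. Among gene lists, 12 of 16 glucocorticoid-target members were higher and 0 lower, beside 107 and 44 of the 333 peaks of that list. Clock genes had 6 higher of 9 members, beside 35 higher and 23 lower of all 178 peaks of that list. Lipogenesis had 6 higher and 1 lower of 8 members, beside 47 and 87 of 241 peaks, and 3 of the 8 are the overlapping Lpin1 members. Hepatocyte transcription factors had 5 higher of 7, beside 79 and 80 of 428, and secreted proteins 5 of 8, beside 85 and 67 of 431. Fatty acid oxidation had 3 of 5, beside 108 and 23 of 247, xenobiotic genes 3 of 7, beside 30 and 33 of 186, and ribosomal proteins 2 of 5, beside 32 and 17 of 156. Immediate early genes had 1 of 7, beside 76 and 42 of 298, and endoplasmic reticulum stress genes 1 of 4, beside 18 and 24 of 164. Acute phase genes had 0 of 4, beside 39 and 22 of 160, and bile acid genes 0 of 2, beside 31 and 21 of 200. The lists with 1 to 3 members left gave 1 of 3 for amino acid breakdown, 1 of 2 for heat shock, 1 of 1 for gluconeogenesis and 0 of 1 for endothelial markers. Besides lipogenesis, these lists had 0 members called lower. Most of these counts are too small to compare the lists.

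The largest fasting increase among members was at an intergenic peak 79.8 kb from Klf9, a glucocorticoid-induced factor, at chr19:23061317-23061517. Averaged over preparations it had 64.0, 81.1 and 134 reads in fasted and 34.8, 19.5 and 22.7 in fed mice. Fasted and fed mice did not overlap, and log2 fasted/fed was 1.78 ± 0.29 (SE, limma adjusted p = 0.00177). A second Klf9 peak, 5.39 kb from the start, had 216, 228 and 198 reads in fasted and 111, 106 and 151 in fed mice (log2 0.77 ± 0.12, limma adjusted p = 0.00163). All 4 Klf9 members rose in fasted mice, although the weakest, on a SINE repeat 116 kb away, had an adjusted p of 0.0485 with limma (0.58 ± 0.20) and lost its call under near-start scaling.

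Other large increases lay in introns or between genes. Near Fam107b, 71.9 kb away, the mice had 140.1, 149 and 86.0 reads when fasted and 44.4, 37.2 and 37.3 when fed, a log2 difference of 1.58 ± 0.22 (limma adjusted p = 0.00088). In an intron of Plppr1 they had 190.1, 165 and 205 reads when fasted and 81.8, 73.5 and 58.2 when fed (1.33 ± 0.15, limma adjusted p = 0.000313). Also named by size were peaks near Gm9899, 1700007F19Rik, B930025P03Rik, Ldlrad4 and Pcsk5, with log2 differences from 1.15 to 1.73.

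The member over the Cycs promoter, singled out after its values were seen and assigned in the table to the neighbouring gene 5430402O13Rik, had log2 frozen/fresh of 1.01 in fasted and 1.01 in fed mice. In frozen liver it had 442, 438 and 452 reads in fasted and 244, 261 and 292 in fed mice. Fresh liver gave 238, 194 and 226 reads in fasted and 152, 117 and 126 in fed mice. Its fasting difference was 0.74 ± 0.07 (limma adjusted p = 0.000211), with no overlap in either preparation. Alas1 had 117, 118 and 139 reads in fasted and 102, 90.7 and 83.2 in fed mice, and its difference of 0.42 ± 0.15 did not pass (limma adjusted p = 0.0536).

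Among the members named from the gene lists, increases were smaller. The Per1 peak 1.86 kb from its start had log2 fasted/fed of 0.51 ± 0.12 (limma adjusted p = 0.0112), and all 3 Per1 members rose, 2 of them without a call under near-start scaling. A peak 1.57 kb from Cyp3a11, a drug-metabolizing enzyme, rose by 0.76 ± 0.15 (limma adjusted p = 0.00463), and the promoter peak of Por, its electron donor, by 0.33 ± 0.08 (limma adjusted p = 0.00979). Near Fads2, a fatty acid desaturase, the increase was 0.58 ± 0.11 (limma adjusted p = 0.0037), and near Acsl1, which activates fatty acids, it was 0.68 ± 0.19 (limma adjusted p = 0.0211). Other members of these lists did not pass, among them Per2 at 0.10 (limma adjusted p = 0.308) and Ppara at 0.15 (limma adjusted p = 0.246). A peak 46.2 kb from Alb rose by 0.44 ± 0.11 (limma adjusted p = 0.0142). Por lost its call under near-start scaling, and Acsl1 when fasted mouse A, fed mouse A or fed mouse B was left out; neither changed sign.

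The 10 members that fell in fasted mice include 1 at Angptl8, a secreted inhibitor of lipoprotein lipase that is induced by feeding. That peak had 130.0, 149 and 115 reads in fasted and 171, 185 and 192 in fed mice (log2 -0.47 ± 0.10, limma adjusted p = 0.00564). Near Slc6a6, the taurine transporter, the mice had 65.2, 94.5 and 63.1 reads when fasted and 159.7, 141 and 147 when fed (-1.05 ± 0.17, limma adjusted p = 0.00178). The largest decrease was near 4921525O09Rik, with 30.7, 29.4 and 34.6 reads in fasted and 65.5, 93.1 and 97.8 in fed mice (-1.35 ± 0.18, limma adjusted p = 0.000652). Members near Zfat, Firre, Fgd2, Gm46545, Nudt7, Proser2 and Mlxipl, which encodes the carbohydrate-responsive factor ChREBP, were also lower, with log2 differences between -1.18 and -0.31.

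rRNA and satellite members had no call in the average of preparations. Of the 20 rRNA repeat members limma called 0 higher and 0 lower on average. In frozen liver all 20 were above 0, with a median of 0.32 and 4 called higher, while in fresh liver 0 were above 0, with a median of -0.45 and 6 called lower. All 10 satellites were above 0 in frozen and 0 in fresh liver, with medians of 0.22 and -0.46 and 1 called higher in frozen liver. Copies of these repeats can share reads and are not independent cases. The difference between preparations comes from the same values that chose the members and was not tested. Without these 30 repeats the counts of the other 727 members were 242 higher and 10 lower.

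**Figure D5:**
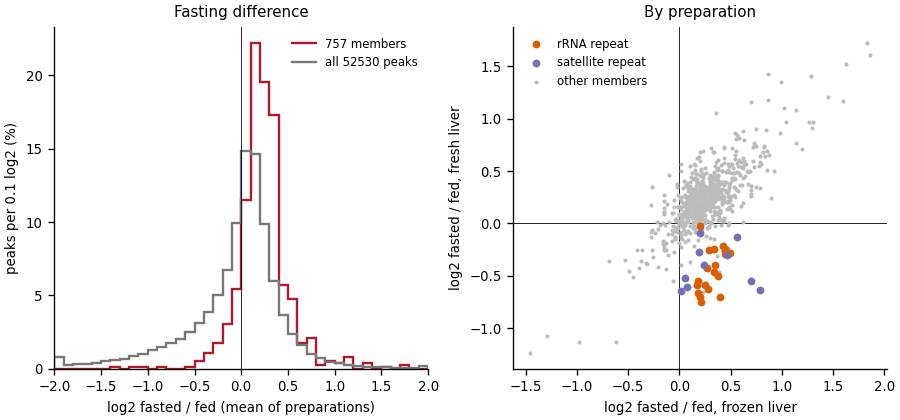
Left, share of peaks (y axis, % per 0.1 log2) by log2 fasted/fed averaged over preparations (x axis, values beyond 2 placed in the end bins), for the 757 members (red) and all 52530 peaks (grey). Right, log2 fasted/fed of each member in frozen (x axis) and fresh liver (y axis). The members' curve sits to the right of zero with a median of 0.22, and the rRNA and satellite members lie right of zero but below it in fresh liver.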

How the data were processed

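The deposited peak table covers 52530 regions of 200 bases (mm10), with 1 column of signal per library. These deposited signal values are reads divided by 1 size factor per library, judged from the values: in every column 100% were whole multiples of 1 step, within 1e-06. The table also holds the authors' log2 fold changes and adjusted p-values for fasting within each preparation, and a peak score by the authors that entered no test. BWA (0.7.5a-r405), SAMtools, HOMER, DESeq2 and mm10 appear in the submitters' processing notes. Which steps removed duplicates, placed reads with several matches or shifted Tn5 ends is not given in the sources used here.

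The members and gene lists were chosen with earlier results of these data known. Column letters A to C match no mouse number in the labels. Frozen and fresh columns of 1 letter and feeding state deviated together (r between 0.329 and 0.640, highest other 0.0213), so each letter was taken as 1 mouse. Fasting was fitted on log2(value + 1) with limma 3.58.1 (R 4.3.3, trended prior, two-sided) and adjusted over all peaks, after the script was tested on simulated data. A fold on this scale understates changes of low peaks. edgeR 4.0.16 and DESeq2 1.42.0 on the recovered whole reads, other scalings, filters and left-out mice were alternatives. For the average of preparations, edgeR and DESeq2 counted the frozen and fresh library of a mouse as separate samples. Named peaks were those with the largest frozen/fresh ratios in all and by class, the highest levels, the largest called fasting differences, up to 3 per gene list and those next to the threshold; not all are printed, and other peaks of the same genes were added after their values were seen. The NRF1 site with a free base and the printed promoters were chosen after sequences were read. Promoter windows are RefSeq's (GRCm38.p6), and peak coordinates are the table's. Reads in peaks were between 3.69 M and 14.5 M per library, and the median peak of the shallowest had 51 reads.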

Additional observations from a re-analysis of the deposited data

Results flagged for a closer look

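At 11 members every fasted library lay above every fed library in frozen liver and below every fed library in fresh liver. Among all peaks, 121 (0.23%) had such opposite separation in either direction, and the share in this direction alone was not counted. The gap between the log2 fasted/fed of frozen and of fresh liver was 1.09 at the second Txndc11 peak, 0.87 and 0.74 at Axin2, 0.84 at Rn45s and 0.84 at Hic2. It was 0.81 at Gphn, 0.7 at Pex2, and 0.69 and 0.74 at Filip1l. These 9 peaks are 8 large-subunit rRNA fragments and the rRNA precursor itself, whose copies can share reads. The other two are Limd1 with 0.75 and BB123696 with 0.84. The difference between preparations was not tested, since the same libraries chose the members.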

How the results depend on the processing

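The number of members was 757 as reported, 84 at a log2 threshold of 1.5, 361 when each lettered pair had to reach 1 (replicate block) and between 709 and 792 when 1 mouse was left out. It lay between 558 and 899 under the other pseudocounts, filters and scalings. For fasting averaged over preparations, near-start scaling gave 92 higher and 22 lower, no replicate block 369 and 16, and edgeR 356 and 16. Both the fit without a block and edgeR counted the frozen and fresh library of 1 mouse as separate samples, which ignores the pairing. With the libraries of 1 mouse linked by a random effect, 281 were higher and 14 lower. Leaving out 1 mouse gave 119 to 209 higher and 6 to 10 lower. In fresh liver, near-start scaling gave 53 and 26, quantile normalization 227 and 9, and DESeq2 72 higher; leaving out 1 mouse gave 40 to 103 higher and 5 to 12 lower. In frozen liver, near-start scaling gave 87 and 15, DESeq2 89 higher, and leaving out the lowest 25% of peaks 4 lower; leaving out 1 mouse gave 106 to 197 higher and 3 to 9 lower. Filters and left-out mice test fewer peaks or samples; the cause of the other moves was not tested. Of 54 called peaks followed under these settings 0 changed sign, 24 lost their call under near-start scaling and up to 21 when 1 mouse was left out. Scaling to the sum over all peaks for fasting, leaving out frozen fasted library C and leaving out the repeats were added after seeing the data. Depth limits the weakest peaks, where 1 read of the shallowest library is worth 2.23 normalized reads.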
